A study of Homo sapiens with 9 samples.

Results

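Chromatin accessibility after treatment with the EZH2 inhibitor GSK126 was set beside that of the DMSO vehicle control in MDA-MB-231 cells, a human triple-negative breast cancer line. One ATAC-seq library was available per side, so a difference between them has no replicate check, and no test between them was made. The GSK126 list held 68756 peaks and the DMSO list 74657, and both were reduced to their 68756 strongest peaks, ranked by −log10 p. Peaks of the 2 lists that overlapped by at least 1 bp were merged into 77172 regions. Of these, 9109 (11.8%) held a GSK126 peak alone, 10170 (13.2%) a DMSO peak alone, and 57893 (75.0%) a peak of both. These classes are called GSK126-only, DMSO-only and shared regions, and the first and second together are called private regions. GSK126 was given for 72 h, at a concentration that the sources used here do not give for these libraries. The DMSO library is named so in its title, while its treatment field reads WT. The Control shRNA and shEZH2 libraries used for comparison came, 2 of each, from cells of the same line given lentivirus for 24 h and then kept for 72 h in 2 μg/ml puromycin. The other libraries carried shE2F1 (2 libraries) or shSUZ12 (1 library), by the same protocol. No label says whether replicates came from separate cultures.

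EZH2 is the catalytic subunit of PRC2, the Polycomb complex that methylates lysine 27 of histone H3. Trimethylation of this residue (H3K27me3) marks silenced genes, above all those of developmental transcription factors. GSK126 competes with the methyl donor S-adenosylmethionine for the EZH2 active site and so blocks methylation without removing the protein, whereas shEZH2 depletes the protein itself. In ATAC-seq, the transposase Tn5 inserts adapters into open chromatin, and a peak marks a stretch where insertions stand above the local background.

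The 3 strongest private regions on each side that lay away from protein-coding promoters are shown as sequence. They were chosen by the strength of their peak in 1 list. Most private regions were far weaker, so these stretches do not stand for private regions in general. Each stretch is the 201 bp centred on the summit, 5′ to 3′ on the plus strand of GRCh38, from the reference genome. Capitals mark matches, on either strand, to AP-1 (TGANTCA), TEAD (GGAATG), E2F (TTTNNCGC), ETS (CCGGAA), RUNX (TGTGGT) or CTCF motifs; none of the marked matches overlapped another.
GSK126-only 1: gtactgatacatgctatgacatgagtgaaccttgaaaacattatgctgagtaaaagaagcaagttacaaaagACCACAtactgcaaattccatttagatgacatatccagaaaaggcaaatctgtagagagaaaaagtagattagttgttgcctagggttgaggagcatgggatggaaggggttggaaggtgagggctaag
GSK126-only 2: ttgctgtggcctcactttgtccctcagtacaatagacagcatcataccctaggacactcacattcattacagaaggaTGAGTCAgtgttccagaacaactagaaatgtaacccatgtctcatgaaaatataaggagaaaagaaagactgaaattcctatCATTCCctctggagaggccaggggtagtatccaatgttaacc
GSK126-only 3: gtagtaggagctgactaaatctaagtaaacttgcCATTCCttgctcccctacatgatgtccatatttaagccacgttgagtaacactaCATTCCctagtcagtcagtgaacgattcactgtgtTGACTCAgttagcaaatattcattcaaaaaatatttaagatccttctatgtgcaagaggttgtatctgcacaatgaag
DMSO-only 1: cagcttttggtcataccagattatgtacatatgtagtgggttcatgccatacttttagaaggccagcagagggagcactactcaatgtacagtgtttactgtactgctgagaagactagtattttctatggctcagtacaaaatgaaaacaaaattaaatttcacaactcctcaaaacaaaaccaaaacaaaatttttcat
DMSO-only 2: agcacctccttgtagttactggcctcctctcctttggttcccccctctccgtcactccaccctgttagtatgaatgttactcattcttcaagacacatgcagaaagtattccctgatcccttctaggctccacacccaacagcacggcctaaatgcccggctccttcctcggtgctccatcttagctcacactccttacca
DMSO-only 3: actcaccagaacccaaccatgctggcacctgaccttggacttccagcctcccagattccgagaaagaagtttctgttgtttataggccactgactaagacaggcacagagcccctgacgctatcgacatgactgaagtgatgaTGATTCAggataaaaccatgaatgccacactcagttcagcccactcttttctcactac

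GSK126-only 1 spans chr3:197306403-197306719, is intergenic, and lies 7.94 kb from the TSS of DLG1, which encodes a membrane scaffold protein. It held 1 RUNX match. GSK126-only 2 spans chr12:53862792-53863140, is intergenic, lies 75.9 kb from the TSS of the homeobox gene HOXC13, and held 1 AP-1 and 1 TEAD match. GSK126-only 3 spans chr2:144015547-144016253, in an intron of GTDC1, 316 kb from that gene's TSS, and held 1 AP-1 and 2 TEAD matches. DMSO-only 1 spans chr3:101803230-101803497, in an intron of NXPE3, and DMSO-only 2 spans chr7:66590722-66591024, an intergenic site 38.0 kb from KCTD7. Neither held a match. Only full matches to a motif were counted, so a near match, to CTCF for example, was not marked. DMSO-only 3 spans chr2:173288568-173289076, is intergenic, lies 66.1 kb from CDCA7, and held 1 AP-1 match. The stretches held 0 to 4 CpG sites and had a GC content of 35.3% to 52.2%.

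The lists hold no read totals, so depth was read from the peaks. From its enrichment and p, the tags stacked at a summit and the local background can be solved as a whole number and a rate, which worked for 100% of peaks in every library. The most frequent background, which moves with depth, was 1.79 tags for DMSO and 1.46 for GSK126, a ratio of 0.816, and ranged from 1.41 to 2.18 over the 9 libraries. The 9 lists held 58626 to 85812 peaks. Because the DMSO list lost 5901 peaks to reach the common length, its weakest kept peak had a −log10 p of 8.08, against 3.94 for GSK126. At the most frequent background this meant at least 13 tags for a kept DMSO peak and at least 8 for a kept GSK126 peak. In 1667 (18.3%) GSK126-only regions, DMSO had a peak that fell below that limit, with a median of 13 tags against 16 for GSK126, and in 329 of them DMSO had more tags than GSK126. The label of the line was checked at its markers. VIM, CD44, AXL and FOSL1, which mark mesenchymal cells of this kind, had promoter peaks in all 9 libraries. GATA3, a luminal factor, and CDKN2A, which is deleted in this line, had none. The other luminal or epithelial markers did have promoter peaks. EPCAM had one in all 9 libraries, with 36 to 116 tags. FOXA1 (24 to 42 tags), CDH1 and ESR1 (11 to 24 tags each) and PGR (11 to 22 tags) had one in most libraries. The luminal and epithelial markers were therefore not absent as a set.

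GSK126 and DMSO shared about as many regions as the Control shRNA replicates did. With all lists at the 58626 peaks of the shortest, 77.3% of regions were shared between GSK126 and DMSO and 77.4% between the Control shRNA replicates. The shEZH2 replicates shared 71.1% and the shE2F1 replicates 71.5%. Each Control shRNA library shared 76.3% or 77.2% of regions with DMSO and 75.3% or 76.4% with GSK126, whereas a Control shRNA and a shEZH2 library shared 69.4% to 72.6%. GSK126 and shEZH2 libraries shared 71.4% and 68.8%, and DMSO and shEZH2 libraries 71.9% and 69.0%.

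Private regions were weak on both sides. The strongest peak had a median of 16 tags in GSK126-only, 19 in DMSO-only and 47 in shared regions, and a median fold enrichment over background of 5.28, 5.42 and 9.35. Peaks were also placed by percentile of −log10 p within their own list. The median was at percentile 12.9 for GSK126-only, 13.6 for DMSO-only and 62.4 for shared regions, and 78.6%, 74.1% and 8.55% lay below percentile 25. Only 94 GSK126-only (1.03%) and 170 DMSO-only regions (1.67%) reached the upper 50 percentiles. The share of peaks without a counterpart was 54.0% for GSK126 and 54.4% for DMSO in the weakest decile of each list. It fell to 0.116% and 0.451% in the 7th decile, and to 0% for both in the strongest 2. The 2 Control shRNA replicates, set against each other at the same length, gave 50.3% and 53.5% in the weakest decile and followed the same course. In the 57893 shared regions, the percentile with GSK126 differed from that with DMSO by a median absolute value of 6.71, against 7.48 between the Control shRNA replicates, and the median signed difference was −0.00291.

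**Figure D1:**
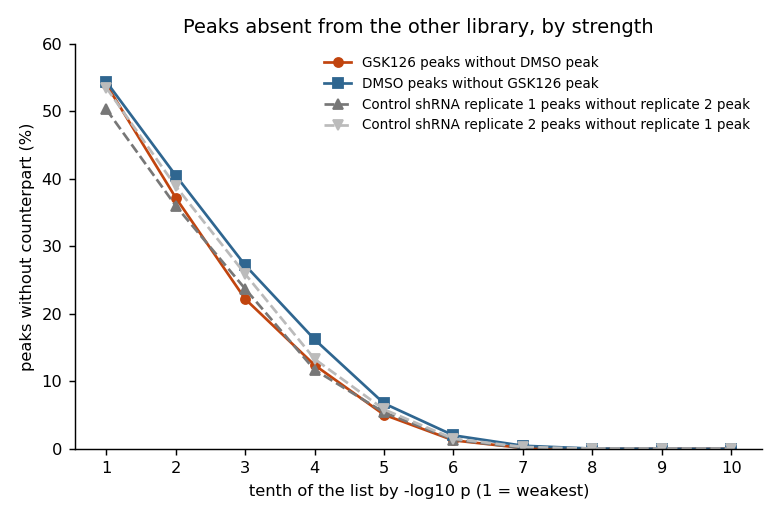
Percentage of peaks (y axis) with no overlapping peak in the other library, by decile of the list ranked by −log10 p from weakest to strongest (x axis), for GSK126 against DMSO (solid lines) and the Control shRNA replicates against each other (dashed lines). All 4 lines start between 50.3% and 54.4% and fall together to under 1% by the 7th decile.

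The 10 strongest private regions per side away from promoters were mostly open in the other libraries. Tags at the summit in the deposited lists are given here for every library. At GSK126-only 1, near DLG1, GSK126 had 63 tags and DMSO no peak. The Control shRNA libraries had 60 and 54 tags there, the shEZH2 libraries 53 and 33, the shE2F1 libraries 38 and 54, and shSUZ12 47, so the DMSO library alone lacked a peak. At GSK126-only 2, near HOXC13, GSK126 had 48 tags, the Control shRNA libraries 29 and 25, the first shEZH2 library 20 and shSUZ12 27, and the other 4 libraries, DMSO included, had no peak. The nearest DMSO peak lay 132 bp away. At GSK126-only 3, in GTDC1, GSK126 had 34 tags and the 7 libraries other than DMSO had 19 to 31. The nearest DMSO peak was 67024 bp away. Of the 10 GSK126-only regions, 6 had a peak in all 7 other libraries, and in 2 (near CFAP299 and KCNA5) the DMSO list as deposited held a weaker peak of 11 and 15 tags, against 32 and 34 with GSK126. The remaining ones lay near RFLNA, SGO1 (a protector of centromeric cohesion), LCLAT1, SH2B3 (a signalling adaptor) and KCNK13 (a potassium channel). They had 32, 33, 33, 46 and 42 GSK126 tags. At the KCNK13 site the nearest DMSO peak lay 120 bp away.

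On the DMSO side, DMSO-only 1, in NXPE3, had 48 tags with DMSO and no GSK126 peak. The Control shRNA libraries had 33 and 37 tags there, the shEZH2 libraries 19 and 18, the second shE2F1 library 32 and shSUZ12 24. DMSO-only 3, near CDCA7, had 42 tags with DMSO and 17 to 30 in all 7 other libraries, and the nearest GSK126 peak was 65407 bp away. DMSO-only 4 lay in an intron of HDAC9 with TWIST1, a driver of the mesenchymal state, as the gene with the nearest TSS, 222 kb away. It had 46 tags with DMSO, 40 and 50 with Control shRNA, 33 and 23 with shEZH2, 28 and 39 with shE2F1 and 35 with shSUZ12. GSK126 was the only library without a peak there. DMSO-only 10, in SMC4, which encodes a condensin subunit and overlaps another annotated gene there, had peaks in only 3 of the 7 other libraries, as did the GEMIN8 site. It had 39 tags with DMSO, 35 and 38 with Control shRNA and 19 with shSUZ12, and no peak with GSK126, either shEZH2 or either shE2F1 library. The other 6 lay near or in KCTD7, GEMIN8, PREX1 (an exchange factor of Rac), VAC14, EPB41L4B and ZFP64. They had 79, 40, 77, 95, 51 and 38 DMSO tags. At the KCTD7 site the nearest GSK126 peak lay 559 bp away. None of the 10 overlapped a peak of the deposited GSK126 list, and 3 had a peak in all 7 other libraries.

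**Figure D2:**
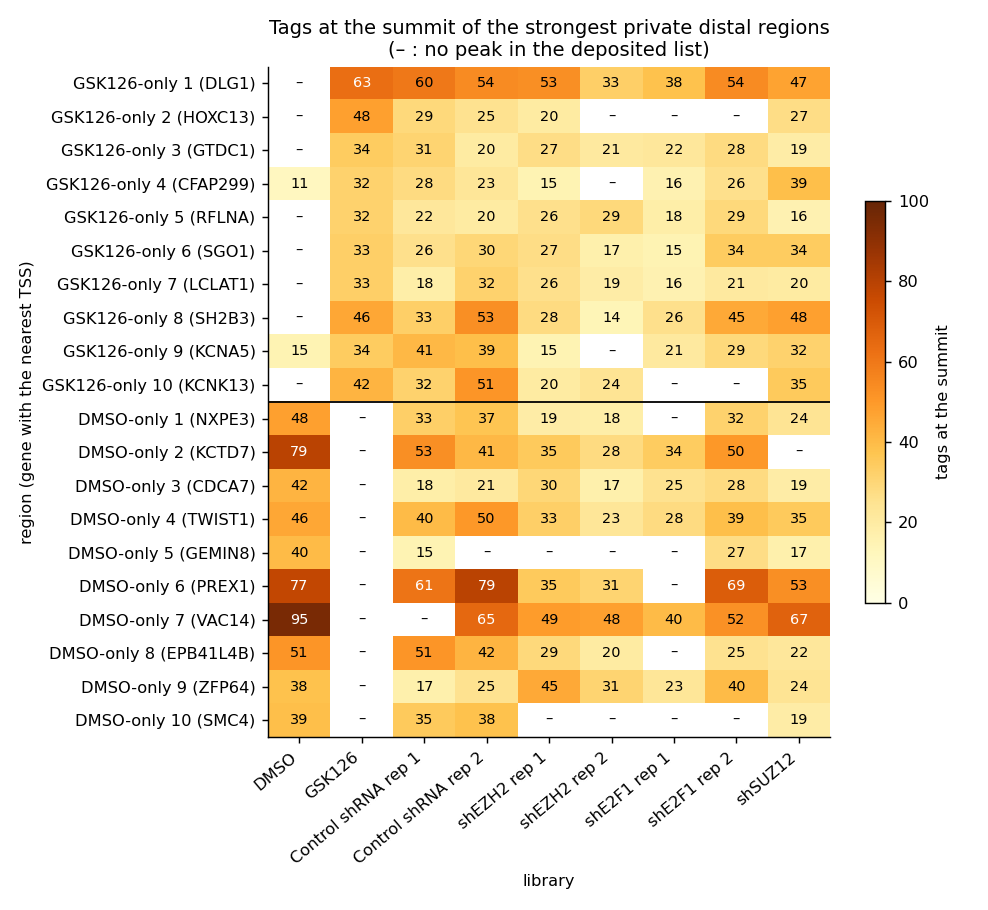
Tags at the summit (number and colour) in the deposited list of each library (columns) for the 10 strongest distal regions private to GSK126 and the 10 private to DMSO (rows, with the gene of the nearest TSS); a dash stands for no peak. Most rows are filled outside the column of the library that lacks the peak: GSK126-only 1 (DLG1) has 33 to 63 tags in the 8 libraries other than DMSO.

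Over all private regions, few were open in every other library. With the 7 other lists at 58626 peaks each, a GSK126-only region had a peak in 23.4% to 26.2% of cases per library, a DMSO-only region in 24.1% to 32.3% and a shared region in 81.4% to 88.3%. No other library had a peak in 3068 GSK126-only (33.7%) and 2761 DMSO-only regions (27.1%), against 1.59% of shared ones. All 7 had one in 125 (1.37%), 180 (1.77%) and 62.5%.

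Private regions were mainly distal. Introns held 39.4% of GSK126-only and 43.4% of DMSO-only regions, intergenic sequence 50.4% and 48.1%, and exons 3.24% and 3.14%. The median distance to a protein-coding TSS was 40.3 kb and 38.7 kb, against 25.2 kb for shared regions. Among regions below percentile 25, where a shared region was placed by the stronger of its peaks, the medians were 39.5, 40.1 and 38.0 kb. Promoters were windows reaching 1 kb up- and downstream of each protein-coding gene's canonical start. Promoters were overlapped by 6.91% of GSK126-only regions (95% exact interval 6.39 to 7.45), 5.34% of DMSO-only regions (4.91 to 5.79) and 21.2% of shared regions. Below percentile 25 the shares were 7.67%, 5.77% and 9.39%. Such intervals cover counting error only, and PCR reads are not independent molecules. The order of the first and second shares turned with the list length: at 58626 peaks per list they were 5.40% and 6.71%. At that length, the share differed between regions private to either Control shRNA replicate by as much, 7.49% and 5.00%, and for the shEZH2 replicates it was 6.67% and 8.97%. At 58626 peaks, the difference in promoter share between GSK126 and DMSO was therefore smaller than that between either pair of replicates.

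**Figure D3:**
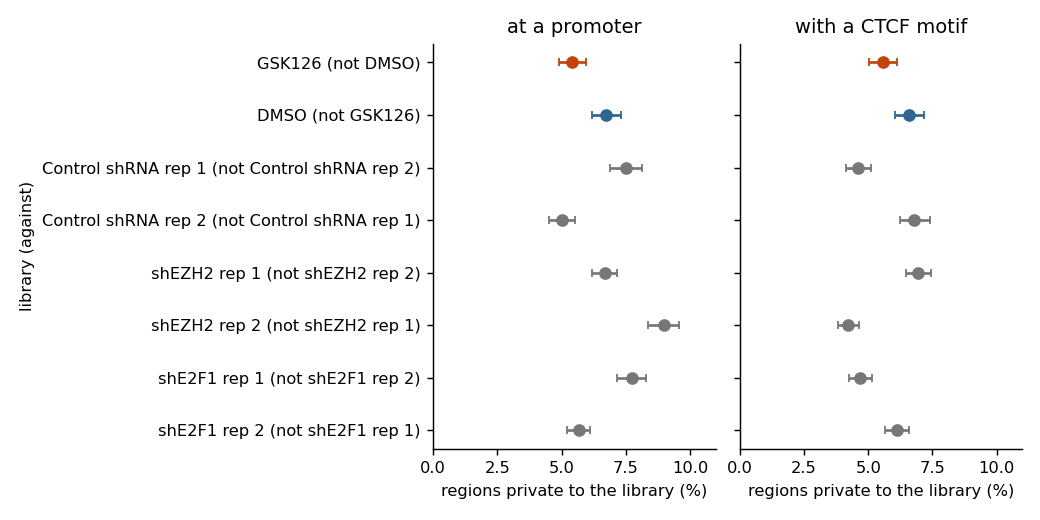
Percentage of regions private to 1 library of a pair (points, with 95% exact intervals) that overlap a promoter (left) or hold a CTCF motif within 100 bp of the summit (right), at 58626 peaks per list. GSK126 (5.40% and 5.56%) and DMSO (6.71% and 6.60%) lie within the range of the replicate pairs, 5.00% to 8.97% for promoters and 4.22% to 6.95% for CTCF.

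Motif content was compared within 100 bp of the summit, on both strands, over the 6 motifs spelled or named above; matches to different motifs could overlap. AP-1, the motif of FOS and JUN proteins, was held by 28.3% of GSK126-only, 32.7% of DMSO-only and 34.3% of shared regions, and by 33.4% of all regions. CTCF, the motif of the insulator protein, was held by 3.66% (3.28 to 4.06), 6.21% (5.75 to 6.70) and 4.54%, against 4.66% of all. This gap, too, shrank at 58626 peaks per list, to 5.56% and 6.60%, with AP-1 at 34.5% and 33.7%, and the Control shRNA replicates differed more, at 4.60% and 6.80% for CTCF. ETS was held by 3.01% and 2.69% of private and 8.11% of shared regions (6.80% of all), and E2F by 1.53%, 1.75% and 2.63% (2.38% of all). Below percentile 25, the ETS shares were 3.07%, 2.80% and 3.41%, so that most of the gap to shared regions was absent among these weak regions. The E2F shares there were 1.58%, 1.62% and 2.10%, the AP-1 shares 26.2%, 31.5% and 31.3%, and the CTCF shares 2.88%, 5.82% and 4.75%. The TEAD shares were 17.4%, 16.3% and 17.2% (17.1% of all), and the RUNX shares 19.9%, 18.9% and 18.4% (18.7% of all). The median GC content was 49.3%, 48.3% and 52.7%.

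Of 20033 protein-coding promoters, 12701 had a peak in both lists, 293 (1.46%) in the GSK126 list alone and 238 (1.19%) in the DMSO list alone. In 122 of the 293 the DMSO list as deposited held a peak, and with both lists as deposited the counts were 171 and 377. The strongest of these promoters mostly lay beside peaks of both libraries. The GSK126-only promoters with the highest percentiles were those of C1orf100, TMEM239, ANKRD13B, HAPLN1, MAJIN, TNFRSF1A, BARHL1, MCMDC2, TNNI2 and SLC5A11. The DMSO-only ones were those of MYD88, RASIP1, NPIPB9 (a member of a multigene family), KLHL15, MCAM, S100A14, IL24, ITGB7, SULT6B1 and AK4P3. All 10 of the latter and 6 of the former lay in regions with peaks of both lists, where the peak of 1 library reached into the promoter window and that of the other ended short of it. MYD88, an adaptor of Toll-like receptors, had 283 DMSO tags at a summit outside the promoter window. Outside such shared regions there were 280 GSK126-only and 202 DMSO-only promoters, a count made after the values were seen.

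Within these, the strongest GSK126-only promoter was that of TNFRSF1A, the main receptor of tumour necrosis factor. GSK126 had 65 tags 20 bp from the TSS, shSUZ12 had 87, the second shE2F1 library had 64, and the other 6 libraries had no peak. BARHL1, a homeobox gene, had 27 tags with GSK126, 31 and 26 with Control shRNA and 29 in the second shE2F1 library, and no peak in the other 5. MCMDC2 had 22 tags with GSK126 and 11 in the deposited DMSO list, and a peak in 6 of the other 7. The DMSO-only promoter of PCGF2, which encodes a component of the other Polycomb complex, PRC1, had 86 tags with DMSO. It had 74 and 91 with Control shRNA, 94 with shSUZ12 and 45 and 55 with shE2F1, and no peak with GSK126 or either shEZH2 library. This gene was singled out after its values were seen. The median was 15 tags for the 280 and 22 for the 202, and 20 and 21 of them had a peak in all 7 other libraries.

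Promoters of the cell cycle genes that the study names were open in all 9 libraries. CCNB1, the mitotic cyclin, had 199 tags with DMSO and 155 with GSK126, a ratio of 0.779. RRM2, a ribonucleotide reductase subunit, had 163 and 135 (0.828), and CDC20, an activator of the anaphase-promoting complex, 192 and 190 (0.990). PLK1, a mitotic kinase, had 64 and 45 (0.703), and E2F5 38 and 24 (0.632). Over the 12701 shared promoters the ratio had a median of 0.856 and a 5th to 95th percentile range of 0.623 to 1.13, which leaves 10% of promoters outside by construction, beside the depth ratio of 0.816. Between the Control shRNA replicates the ratio spread as widely around 1.22, from 0.872 to 1.61. All 5 genes lay inside the range for GSK126 over DMSO, and E2F5, at percentile 5.61, was closest to its lower end. E2F1 itself had 143 and 132 tags. All 57 listed cell cycle and replication genes had a promoter peak in both lists, as did 63.4% of all promoters. The median ratio of the 57 was 0.828. BRCA1 (144 and 87) and KIF11 (126 and 78) lay below the range. BUB1B (60 and 76), E2F2 (28 and 43), ORC1 (144 and 168) and PCNA (184 and 214) lay above it.

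The genes of the drug's target and its partners had promoter peaks under both treatments. EZH2 had 185 tags with DMSO and 193 with GSK126, SUZ12 129 and 107, and EED 80 and 83. All 15 listed PRC2 genes and H3K27 demethylases had a peak in both lists, as did 63.4% of all promoters. KDM6A, an H3K27 demethylase, lay above the range at 171 and 201 tags. These are peaks at genes, and say nothing of the amount or activity of the proteins.

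Genes known as Polycomb targets mostly had no promoter peak under either treatment. Of all protein-coding promoters, 33.9% had a peak in neither list and 63.4% in both. Of 39 HOX genes, 33 had a promoter peak in neither list and 6 in both. Of 131 developmental transcription factors, 90 had a peak in neither list, 36 in both, 4 in the GSK126 list alone (3.05%, against 1.46% of all promoters) and 1 in the DMSO list alone. The 4 were BARHL1, SIX3, SOX2 and TLX2. SIX3 had 35 tags with GSK126 and 30 in the deposited DMSO list, and TLX2 had 10 with GSK126 and 14 in the first library of each of Control shRNA and shE2F1. SOX2, a stem cell factor, had 15 tags with GSK126 and 17 to 28 in 6 of the 7 other libraries, 2 of them the Control shRNA libraries with 21 and 18, so its peak was missing from DMSO and the second shEZH2 library alone. LHX1 had 17 tags with DMSO. Among the shared promoters of this list, the ratio had a median of 0.859, with VAX1 (38 and 19), MEIS1 (45 and 23) and NKX6-1 (85 and 50) below the range and GSX2 (33 and 41), PRRX1 (17 and 23) and IRX5 (109 and 174, at summits 1355 bp apart) above it.

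The list of epithelial and luminal breast genes had the highest share of GSK126-only promoters, 5 of 30 (16.7%, against 1.46% of all promoters), beside 2 DMSO-only (6.67%, against 1.19% of all), 18 shared and 5 with neither. The 5 were CDH1 (E-cadherin), ESR1 (the oestrogen receptor), PGR (the progesterone receptor), ESRP1 (an epithelial splicing regulator) and TFF3. These peaks were among the weakest of the GSK126 list, at 11, 11, 11, 13 and 13 tags and percentiles of 0.00654 to 10.7. The DMSO list as deposited held a peak at 3 of them with more tags than GSK126, 14 at CDH1, 15 at ESR1 and 19 at ESRP1. CDH1 and ESR1 had 18 tags in the second Control shRNA library, against 18 and 17 in the first. TFF3 had a peak in the GSK126 library alone. The DMSO-only members, AGR2 and ST14, had 16 and 34 tags with DMSO, and were weak as well, at percentiles of 0.0211 and 1.92. ESRP2 was shared, at 48 tags with DMSO and 173 with GSK126, but from summits 1389 bp apart. Of 32 mesenchymal and basal-like promoters, 26 were shared and 6 had a peak in neither list. Of all promoters, 63.4% had a peak in both lists and 33.9% in neither. COL1A1 (191 and 247) and CCN2 (135 and 154) lay above the range of ratios.

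Of 28 tumour suppressors reported as silenced through EZH2, 20 were shared, 6 had no peak and 2, CDH1 and RAP1GAP, were GSK126-only (7.14%, against 1.46% of all promoters). RAP1GAP had 14 tags with GSK126 and 16 in the deposited DMSO list. VASH1, an angiogenesis inhibitor, was the shared member below the range, at 69 and 32. Of the 8 CDK inhibitors, 6 were shared with a median ratio of 0.972 and 2 had no peak. Of 50 interferon and antigen presentation genes, 45 were shared and 1, IFI44L, was GSK126-only (2.00%) with 12 tags. GBP1, an interferon-induced GTPase, had 34 tags with DMSO and 21 with GSK126, below the range of ratios. HLA-C (100 and 130), HLA-DPB1 (36 and 42) and CIITA (45 and 52) lay above the range. So did OASL (32 and 41) and OAS2 (74 and 84). HLA genes share sequence with close paralogs. The 45 shared members had a median ratio of 0.841, against 0.856 over all shared promoters. Of 34 cytokines, chemokines and proteases, CSF3 was GSK126-only (2.94%) with 34 tags at percentile 5.84, beside 44 with shSUZ12 and no peak elsewhere. IL24 and PLAU, the urokinase gene, were DMSO-only (5.88%, against 1.19% of all promoters). The IL24 peak, with 105 DMSO tags, lay in a region with peaks of both lists. Its summit was 1259 bp from the TSS, outside the promoter window. PLAU had 54 tags with DMSO, beside 63 in the first Control shRNA library, 46 in the second shE2F1 library and 72 with shSUZ12. Its DMSO peak was weak for its background, at a fold enrichment of 2.39 and percentile 2.97. The 16 shared members of this list had a median ratio of 1.01. CSF1 (50 and 71), CSF2 (107 and 129) and CXCL3 (64 and 80) lay above the range and TNFAIP3 (134 and 78) below it.

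**Figure D4:**
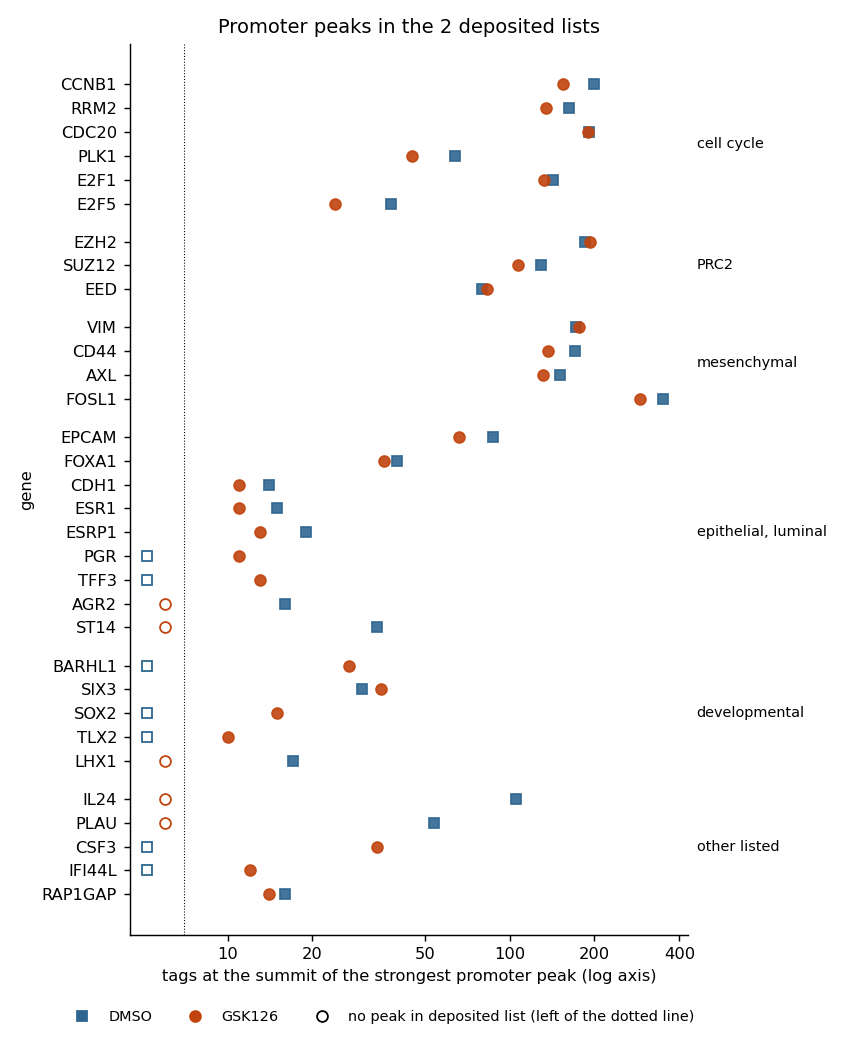
Tags at the summit of the strongest promoter peak (x axis, log scale) in the deposited DMSO (squares) and GSK126 (circles) lists for named genes (y axis), grouped by list; open symbols left of the dotted line stand for no peak. Cell cycle, PRC2 and mesenchymal promoters have 24 to 351 tags in both libraries, while CDH1 (14 and 11), ESR1 (15 and 11) and ESRP1 (19 and 13) have few tags, and more with DMSO.

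Private regions of both kinds often lay near the same gene. Of 9085 genes that were nearest to at least 1 private region, 2985 were nearest to both kinds. The largest excess of DMSO-only regions was at KLF4, a Krüppel-like factor, with 11 DMSO-only and 1 GSK126-only among 43 regions. The 11 had 13 to 46 tags, and peaks lay in 4 and 5 of them in the Control shRNA libraries and in 5 and 6 of them in the shEZH2 libraries. The 1 Mb bin of chromosome 9 from 107000001 to 108000000 held 14 DMSO-only regions and 1 GSK126-only region. TRIB1 had 11 DMSO-only and 3 GSK126-only among 41 regions, and SOX9 10 and 3 among 59. ASAP1 had 9 and 2 among 44, and TSN 8 and 1 among 20. Of all regions, 13.2% were DMSO-only and 11.8% GSK126-only. The loci named here were picked as the extremes of the 9085 genes. The 10 DMSO-only regions nearest to SOX9, a developmental transcription factor, had peaks in 5 and 5 cases in the Control shRNA libraries and in 6 and 4 with shEZH2. In the other direction, LRRN3 had 8 GSK126-only and 2 DMSO-only among 24 regions. XPNPEP1 had 7 and 0 among 15, C7orf33 7 and 0 among 16, and RASGRP1 7 and 1 among 19. ESR1 also had 7 and 1 among 13, over 422 kb. The 7 had 10 to 17 tags, DMSO had a peak below its limit in 2 of them, and each Control shRNA library had a peak in 1. On the autosomes and X, GSK126-only regions made up 43.7% to 50.3% of private regions per chromosome.

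Whether the same sites changed with shEZH2 was asked in the Control shRNA and shEZH2 lists, which share no library with GSK126 or DMSO. With all 4 at 58626 peaks, a region counted as gained where both shEZH2 lists and no Control shRNA list had a peak, and as lost in the reverse case. Of all 77172 regions, 1.71% were gained and 3.52% lost. Of the GSK126-only regions, 369 (4.05%, 3.66 to 4.48) were gained and 365 (4.01%, 3.61 to 4.43) lost. Of the DMSO-only regions, 323 (3.18%, 2.84 to 3.54) were gained and 537 (5.28%, 4.85 to 5.73) lost, and of shared regions 1.08% and 3.14%. Of the GSK126-only regions, 47.1% had a peak in none of the 4 lists. Among regions below percentile 25, the gained shares were 3.88% for GSK126-only, 3.22% for DMSO-only and 4.59% (4.02 to 5.21) for shared regions, and the lost shares 3.24%, 4.22% and 5.58% (4.95 to 6.25). In this class the shared regions, which had a peak in both the GSK126 and the DMSO list, had the highest shares of both. A shared region was placed by the stronger of its peaks, and strength was not matched within the class.

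**Figure D5:**
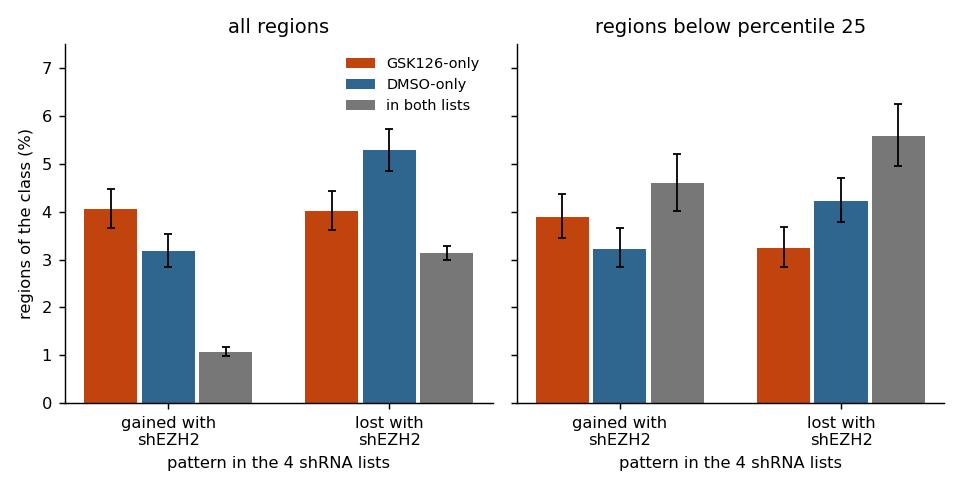
Percentage of GSK126-only, DMSO-only and shared regions (bars, with 95% exact intervals) that were gained or lost with shEZH2, for all regions (left) and for those below percentile 25 of their list (right). GSK126-only regions stand at 4.05% gained and 4.01% lost; among weak regions the shared ones stand highest, at 4.59% and 5.58%.

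The gained share was higher in GSK126-only than in DMSO-only regions under all 12 alternative settings. The lost share was higher in DMSO-only regions under 11. These settings reuse the same libraries, so their number is not repeated evidence, and the sizes depended on the lists. Ranked by fold enrichment, 3.45% of GSK126-only and 3.11% of DMSO-only regions were gained, and 4.56% and 4.55% were lost. With the 4 shRNA lists as deposited, 1.56% of GSK126-only and 0.993% of DMSO-only regions were gained, and 11.7% and 14.3% were lost. The balance of gained and lost GSK126-only regions moved as well. With the top 30000 peaks, 0.298% were gained and 2.70% lost. Without the first Control shRNA library 6.19% were gained and 10.5% lost, and without the second 6.33% and 9.74%. Without the first shEZH2 library 9.44% were gained and 6.66% lost, and without the second 9.59% and 5.94%. Seen from the other side, 2004 regions of the 4 lists were gained with shEZH2. Of these, 17.5% held a GSK126 peak alone, 16.1% a DMSO peak alone, 30.9% both and 35.5% neither. Of the 2900 lost regions, 10.1% held a GSK126 peak alone, 16.8% a DMSO peak alone and 61.2% both. Over all 74811 regions of these lists the shares were 5.74%, 7.68% and 73.7%. An shSUZ12 peak lay in 32.5% of the 369 GSK126-only gained regions and in 32.2% of the 323 DMSO-only gained ones. It lay in 48.2% of the lost regions of both kinds.

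The sites that moved the same way were named after their values were seen. The strongest GSK126-only region gained with shEZH2 was intergenic, 92.0 kb from the TSS of FOXB1, with 31 tags with GSK126. It had 21 and 14 tags with shEZH2, and also 19 and 20 in the deposited Control shRNA lists, below their limit, and only DMSO had no peak. Of the 369 regions 12 overlapped a promoter. Tags are given at the region itself, and the same promoter can hold other peaks, shared ones among them. IL23A, which encodes a cytokine subunit, had 37 tags with GSK126, 37 and 24 with shEZH2, 32 in the second Control shRNA library and no peak in the other 5. RTN1 had 11 tags with GSK126, 33 and 12 with shEZH2, 18 and 48 with shE2F1 and no peak with Control shRNA. RGN, DUS1L, RGS17, SEC31B, ARL14, PPP1CB and ALOX5AP had a DMSO peak below its limit. At RGN, for example, DMSO had 13 tags, GSK126 12, Control shRNA 17 and 17, and shEZH2 20 and 11. HSD17B2, MYO6 and RAB11FIP5 had none with DMSO, but each had a peak in a deposited Control shRNA list. HSD17B2 had 18 and 14 tags with Control shRNA. MYO6 had 19 and RAB11FIP5 48 in the first Control shRNA library. Of the 12 promoter regions, only that at RTN1 had no peak in either deposited Control shRNA list.

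The strongest DMSO-only region lost with shEZH2 was the SMC4 site described above. The next lay in introns of PLEKHA7 and PARD3, both cell junction genes, with 61 and 33 DMSO tags. The PLEKHA7 site had 53 and 55 tags with Control shRNA, 34 and 49 with shE2F1 and 48 with shSUZ12, and no peak with GSK126 or shEZH2. The PARD3 site had 27 and 34 tags with Control shRNA and 18 in the second shE2F1 library. Of the 537 regions 27 overlapped a promoter. Here too the tags are those at the region, and its loss does not mean that the promoter had no peak. MFSD14A, one of the 27, had a promoter peak in both lists, with 142 tags with DMSO and 142 with GSK126. LIMD1 (72 DMSO tags), PCGF2 (86), CNTNAP1 (69), LCORL (53) and TLCD2 (61) were the strongest of these. PCGF2 had no peak in either deposited shEZH2 list. At the other 4 the first shEZH2 library had a peak below its limit, with 34 tags at LIMD1, 42 at CNTNAP1, 29 at LCORL and 41 at TLCD2. SNAI2, the EMT factor Slug, had 34 tags with DMSO at a summit 1.10 kb from the nearest TSS, 33 and 53 with Control shRNA and 18 and 29 with shE2F1, and no peak with GSK126, shEZH2 or shSUZ12. SMARCA2, a chromatin remodelling ATPase, had 45 tags with DMSO, 56 and 76 with Control shRNA, 45 in the first shEZH2 library and 49 with shSUZ12. In each of these the absence of a GSK126 peak rests on 1 library, which was the shallower one, and the part of depth was not tested.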

How the data were processed

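ATAC-seq peak lists of 9 MDA-MB-231 libraries were used, grouped by their deposited labels. The authors aligned reads with Bowtie2, named in the submitters' processing notes with builds hg38 and GRCh38, and shifted them by 4 and -5 bp for the Tn5 cut. Peaks were called per library; the caller is not given in the sources used here. Each deposited list gives a score (from −log10 q), a fold enrichment, which is the ratio of the summit to its local background, the −log10 of p and of q, and the summit position. The lists hold no read counts per region. The lowest −log10 q in a list was 2.00.

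Lists were set to the same length by −log10 p, with ties ordered by fold enrichment, and merged at 1 bp. Tags were recovered from fold enrichment and −log10 p with a tolerance of 0.005. Tag counts were not scaled between libraries. Genes came from GENCODE release 44 (20033 protein-coding canonical transcripts, 18866 lncRNAs) and sequences from GRCh38, which every peak fitted. Values are counts, with exact (Clopper-Pearson) 95% intervals for shares. With 1 library a side there was no test. Named were the 10 strongest private promoters and 10 strongest private regions away from a TSS per direction, 5 loci per direction, listed genes with a private promoter, and CCNB1, RRM2, CDC20, PLK1 and E2F5. Other names were chosen after values were seen. Members and lists were chosen with earlier results of these data known. On simulated peaks, tags were recovered for 100% of 5000 and classes for 100% of 5500 regions, for GSK126 against DMSO. Alternatives were other list lengths, thresholds, rankings, overlaps, promoters and controls. Python 3.11.15, numpy 2.4.6, pandas 2.3.3, scipy 1.17.1, pyfaidx 0.9.0.4 and matplotlib 3.10.9 were used. A result for a listed gene is not reported here.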

Additional observations from a re-analysis of the deposited data

How the results depend on the processing

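Of 76 recomputed values, 37 stayed within range: a count within 1.5 times its value, or a share within its exact interval. Keeping the top 30000 peaks gave 3697 GSK126-only and 3846 DMSO-only regions, 466 DMSO-only promoters, promoter shares of 9.22% and 12.1% for GSK126-only and DMSO-only regions, 0.298% of GSK126-only regions gained with shEZH2 and 2.81% of DMSO-only regions lost. In the same order, lists as deposited gave 171 and 377 private promoters, promoter shares of 6.02% and 5.95%, and a lost share of 4.20%. Lists at 58626 peaks gave 5.40%, 6.71% and a lost share of 7.32%. A −log10 q of at least 5 gave 6.28% and 5.91%. Ranking by fold enrichment gave 10.4% and 3.45%, with 3.45% gained and 4.55% lost. Summit windows of 250 bp on each side gave 12.9% and 8.81%, with 3.57% gained. An overlap of at least 50% of the shorter peak gave 7.58% for GSK126-only regions. Promoters of 500 bp on each side gave 4.11% and 3.05%, and of 2 kb 9.08% and 7.87%. The Control shRNA and shEZH2 lists as deposited gave 1.56% gained and 14.3% lost. Leaving out 1 Control shRNA or shEZH2 library at a time gave 6.19% to 9.59% gained and 7.38% to 12.8% lost, since fewer lists had to concur. The cause of the other moves was not tested. The promoter share was higher in GSK126-only regions except at 58626 and 30000 peaks. Counts of promoters restricted to regions of 1 list (280 and 202) were added after the data were seen. The overlap rule does not enter promoter counts, so it gave no value for them. No paired analysis was possible because the shares come from presence of peaks and not from a fit, and the GSK126 and DMSO libraries carry no replicate number. Weak peaks limit these lists: at 8 to 13 tags, presence or absence of a peak lies near the detection limit of both libraries, and a missing peak does not show closed chromatin.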
